A study of Mus musculus with 16 samples.

Results

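The comparison concerned carriers of 1 copy of the ob allele of the leptin gene (Lepob/+) and mice without it, in iWAT, the inguinal white fat depot, which lies under the skin of the groin. The members were 8 carrier libraries and 8 non-carrier libraries, which together are the 16 of 16 libraries of the series, assigned by the genotype in their labels. The carriers were 4 Lepob/+ mice and 4 SOD1G93A-Lepob/+ mice, and the non-carriers were 4 wild type (WT) mice and 4 SOD1G93A mice. All samples were labelled as female C57BL/6 mice at 90 days, an early symptomatic stage of the motor neuron disease that SOD1G93A mice develop. The SOD1G93A line carries many copies of a mutant human SOD1 gene, and the ob allele came from the B6.Cg-Lepob/J stock and is present in every cell, so neither genotype was restricted to fat. Lepob/+ females had been crossed with SOD1G93A males, genotypes rested on PCR, and litters and dissection days were not given. Whole-tissue RNA was sequenced and reads were counted per gene. The question was which iWAT transcripts differed with the ob allele once the SOD1G93A transgene had been entered as an additive term.

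Leptin is a hormone that adipocytes secrete in proportion to their fat stores, and it acts on receptors in the hypothalamus to limit food intake and permit energy use. It also acts on immune cells, and mice without leptin become obese and insulin resistant. In adipocytes, insulin and SREBP factors drive the enzymes that make fatty acids, and beta-adrenergic signals release them. The ob allele is a single-base change that turns an arginine codon of the leptin coding sequence into a stop codon, and a heterozygous mouse keeps 1 intact copy. The codon is shown because it is the only sequence that separates the groups by design.

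Lep, arginine codon in capitals: ctggagaatctcCGAgacctcctccat

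The capitals mark the arginine codon that the ob allele turns into a stop codon. These 27 bases of the reference allele lie on the plus strand at chr6:29070979-29071005 of GRCm38 (mm10), in the coding part of exon 3 of 3 of Lep (chr6:29060220-29073877), by the GENCODE M21 annotation. Counts per gene do not separate the alleles, so the Lep count cannot check the labels. The endogenous Sod1 count does not check the transgene either, since reads from the human gene may not map to it. Its mean level was 399 CPM in WT and 361 CPM in SOD1G93A mice. It was 358 CPM in Lepob/+ and 392 CPM in SOD1G93A-Lepob/+ mice. Between carriers and non-carriers, a contrast that does not concern the transgene, its log2 fold change was -0.02 ± 0.13 (SE).

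The 16 libraries held 36795376 to 61886313 counts each, and 19736 genes passed the filter on low counts. Markers of mature adipocytes were high in every library, with a mean log2 CPM (counts scaled to library size) of 9.85 to 10.62 in carriers and 9.70 to 10.84 in non-carriers. A list of genes from lymph node stroma and its high endothelial venules (the lymph node score) split the libraries into separate levels. Their mean log2 CPM was 4.15 to 4.98 in 6 libraries and -0.99 to -0.10 in the other 10. The 6 were WT replicates 1 and 2, SOD1G93A replicates 1, 2 and 4, and Lepob/+ replicate 3, which makes 5 of 8 non-carriers and 1 of 8 carriers. In this whole tissue, fewer cells of a type and less RNA per cell cannot be told apart. Skeletal muscle genes summed to 284320 CPM in Lepob/+ replicate 4, against at most 7480 CPM in WT mice. These CPM use library sizes scaled between samples, so the sum is not a share of the counts. The SOD1G93A-Lepob/+ replicate 3 library had 0 Xist counts and 1756 counts from 4 Y chromosome genes, against its label as female.

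**Figure D1:**
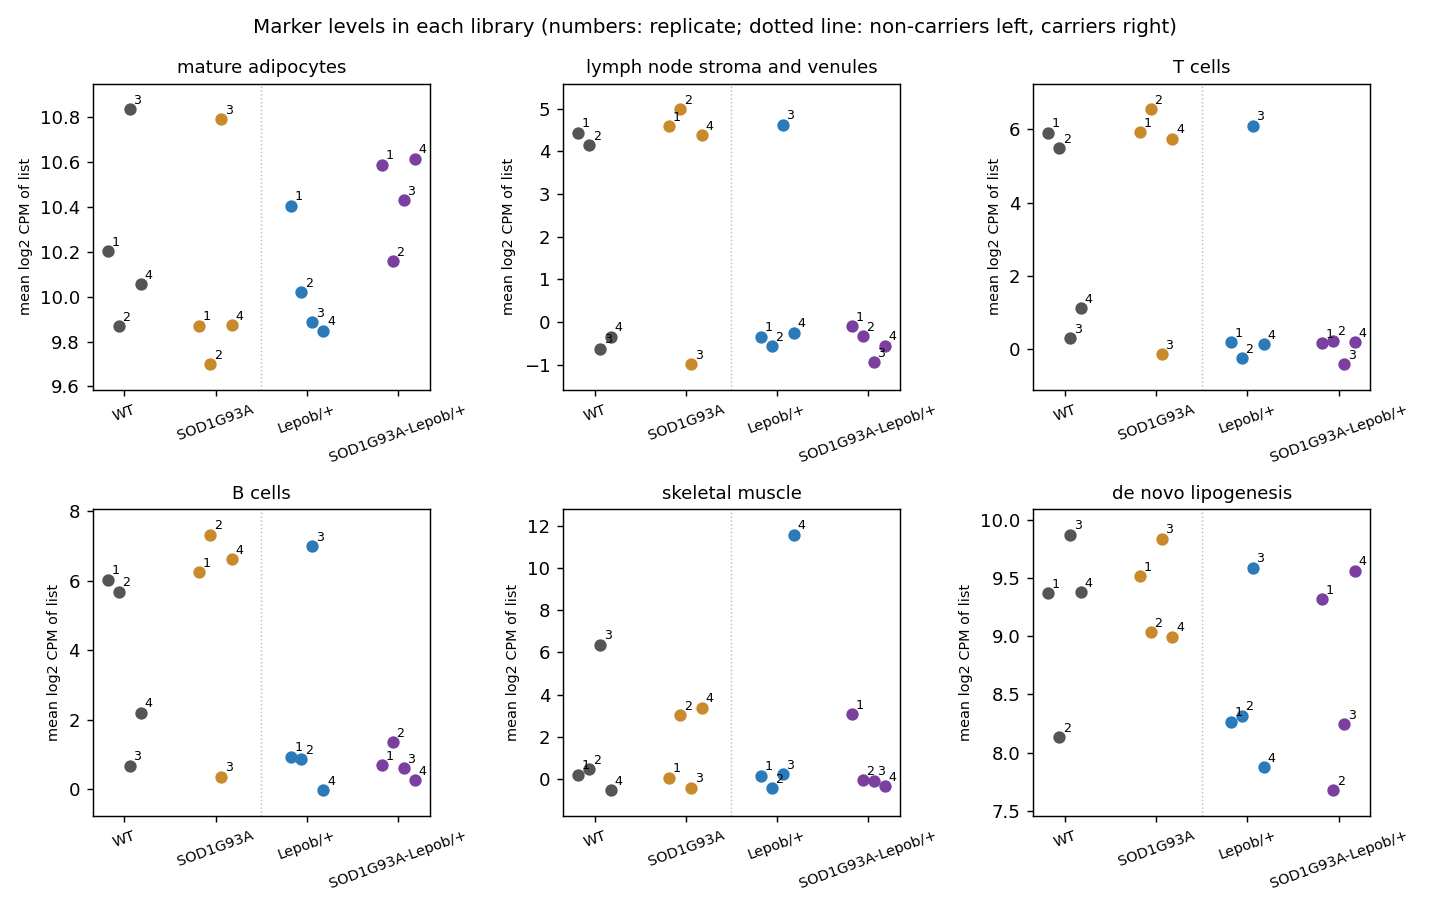
Mean log2 CPM of 6 marker lists in each of the 16 libraries, with genotype on the horizontal axis, 1 point for each mouse and its replicate number beside it. Lymph node, T cell and B cell markers were high in 5 non-carriers and in Lepob/+ replicate 3, and skeletal muscle markers were highest in Lepob/+ replicate 4.

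No gene passed an adjusted p of 0.05 between carriers and non-carriers. By edgeR's quasi-likelihood test with Benjamini-Hochberg adjustment, 0 of 19736 genes (0%) were called and the smallest adjusted p was 0.600. At an unadjusted p under 0.05 there were 1204 genes (6.1%), of which 551 (2.79%) were higher and 653 (3.31%) lower in carriers. DESeq2 also called 0 genes, with 1960 (10.2%) at an unadjusted p under 0.05, while limma voom with quality weights called 6335 (32.1%) and without such weights called 0. Over all genes, the log2 fold changes had a median of 0.03, and 54.2% of them had a positive sign. The count of calls turned on 1 library. Without Lepob/+ replicate 3, the carrier library rich in lymph node genes, 630 genes (3.19%) passed the adjusted threshold, 71 (0.36%) higher and 559 (2.83%) lower. Leaving out any of the other 15 libraries gave 0 calls by edgeR.

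**Figure D2:**
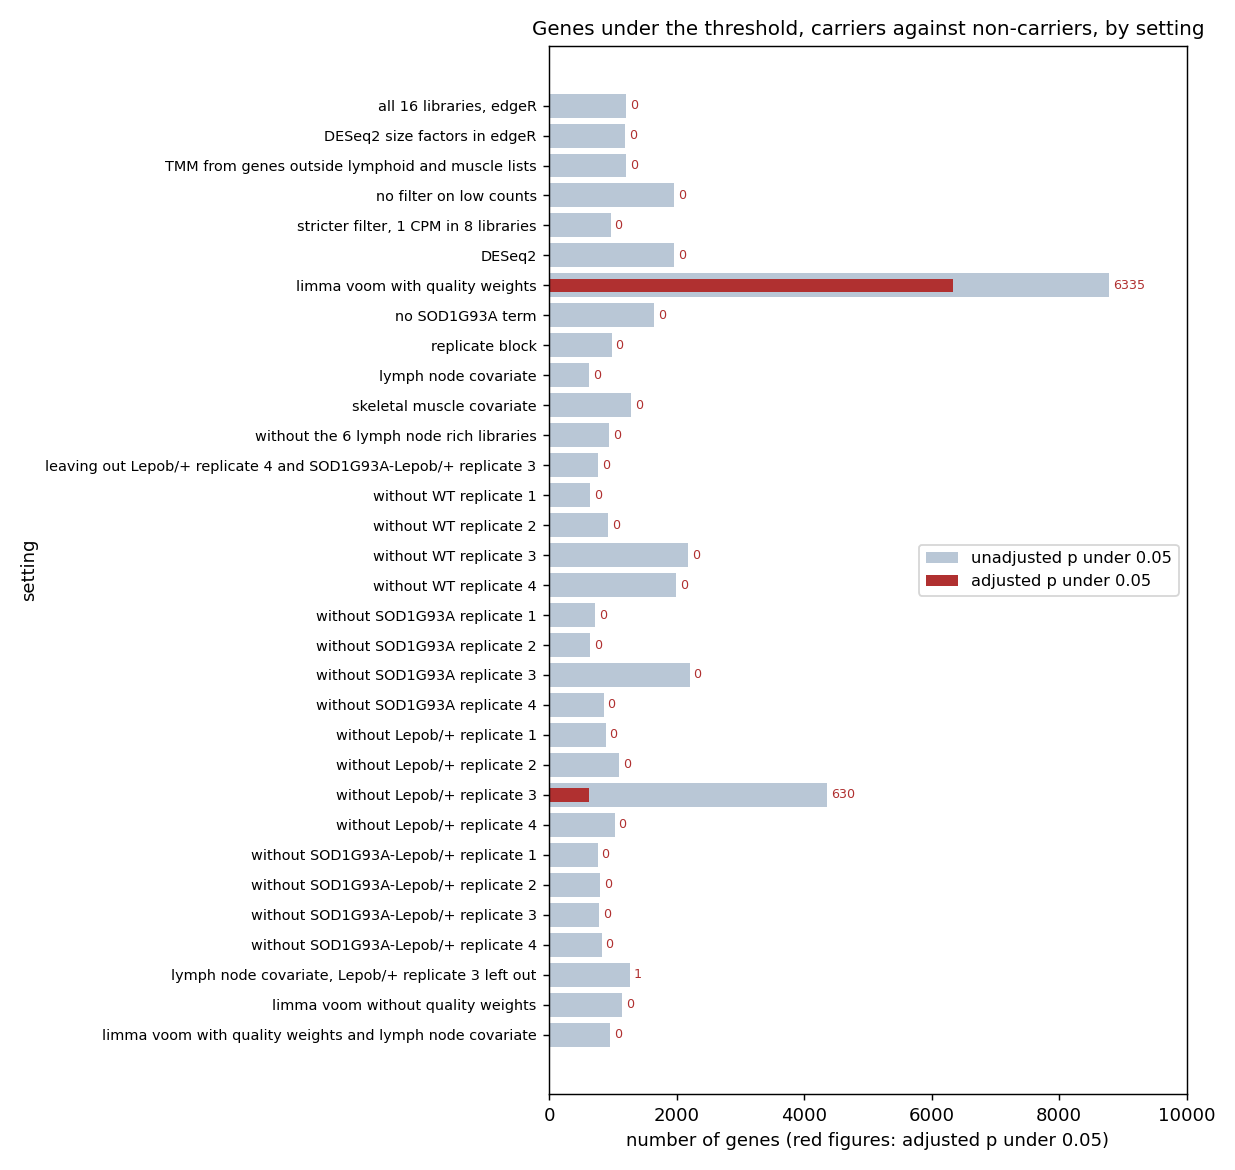
Number of genes with an unadjusted p under 0.05 (grey bars) and an adjusted p under 0.05 (red bars and figures) in each setting, with the setting on the vertical axis. The adjusted count was 0 in all settings drawn except limma voom with quality weights (6335), leaving out Lepob/+ replicate 3 (630), and that library left out with a lymph node covariate (1).

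The level of the Lep transcript differed between carriers and non-carriers by less than the spread between mice. It was 181, 568 and 1843 CPM (lowest, median and highest of 8) in carriers and 202, 334 and 993 CPM in non-carriers. All carriers but the highest and the lowest lay within the range of the non-carriers, and the highest value belonged to the SOD1G93A-Lepob/+ library with Y chromosome counts. By genotype, the Lep level was 431 ± 262 CPM in WT, 476 ± 348 in SOD1G93A, 468 ± 215 in Lepob/+ and 915 ± 621 in SOD1G93A-Lepob/+ mice (SD, n = 4 each). The difference in mean log2 CPM was 0.59 (two-sided exact permutation test within SOD1 genotypes, p = 0.204, smallest possible p = 0.000408). The 6 libraries rich in lymph node genes had the 6 lowest Lep levels, and with that score as a covariate the Lep log2 fold change had the opposite sign, -0.13 (edgeR unadjusted p = 0.580).

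Lepr, the leptin receptor, was at 4.18, 5.64 and 9.11 CPM in carriers and 2.66, 6.82 and 19.9 CPM in non-carriers. The groups overlapped, and SOD1G93A replicate 2 held the highest value. Its log2 fold change was -0.43 ± 0.32 (SE, edgeR unadjusted p = 0.207, adjusted p = 0.616), and 0.21 with the lymph node covariate. Of 12 genes of leptin signalling, 6 lay higher and 6 lower in carriers, with a median log2 fold change of -0.02, and 0 had an unadjusted edgeR p under 0.05. Given the lymph node covariate, 10 of the 12 lay higher with a median of 0.15. There 2 members had an unadjusted edgeR p under 0.05, against 3.14% of all genes. In the 10 libraries poor in lymph node genes 10 of the 12 lay higher with a median of 0.21. Again 2 members had such a p, against 4.73% of all genes. Cish, an inhibitor of cytokine receptors that STAT5 induces, had the smallest p of the 12 over all libraries. Its log2 fold change was 0.76 ± 0.42 (SE, edgeR unadjusted p = 0.0941). It reached 13.0 to 31.8 CPM in carriers and 1.73 to 31.1 CPM in non-carriers. For Cish the log2 fold change was 1.54 with the lymph node covariate (edgeR unadjusted p = 0.0107) and 2.20 in the 10 poor libraries (edgeR unadjusted p = 0.00164).

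The lower leading genes were chosen by the smallest unadjusted p, and none passed adjustment over all genes. Akap5, a scaffold that holds protein kinase A near its substrates, lay at 0.197, 0.445 and 0.703 CPM in carriers and 0.557, 1.10 and 1.60 CPM in non-carriers. All carriers but SOD1G93A-Lepob/+ replicate 3 lay below every non-carrier. Akap5 had a log2 fold change of -1.32 ± 0.28 (SE, edgeR unadjusted p = 0.000301, adjusted p = 0.600), with -1.21 without and -1.43 with the transgene. Haus3, a subunit of the augmin complex that seeds spindle microtubules, lay at 12.2, 16.05 and 18.3 CPM in carriers and 18.0, 20.7 and 26.2 CPM in non-carriers. The ranges met only where Lepob/+ replicate 3 and SOD1G93A-Lepob/+ replicate 4 lay above WT replicate 2. The log2 fold change of Haus3 was -0.47 ± 0.10 (SE, edgeR unadjusted p = 0.000314).

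Ttll12, a tubulin tyrosine ligase family protein, stood at separate levels. It was at 28.2 to 32.6 CPM in all 8 non-carriers and at 14.2, 15.7 and 31.7 CPM (lowest, median and highest) in carriers. Of the carriers, Lepob/+ replicates 3 and 4 were at 29.0 and 31.7 CPM, and the others lay near the lowest value. The mean level was 15.6 ± 0.911 CPM in SOD1G93A-Lepob/+ mice against 30.4 ± 0.883 CPM in SOD1G93A mice, and 22.6 ± 9.03 CPM in Lepob/+ against 30.7 ± 2.00 CPM in WT mice (SD, n = 4 each). Its log2 fold change over all libraries was -0.70 ± 0.16 (SE, edgeR unadjusted p = 0.000532).

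Wdr37, a WD-repeat protein that partners the sorting adaptors PACS1 and PACS2, was split in the same manner among carriers. It lay at 7.25, 11.3 and 26.4 CPM in carriers and 24.7, 28.6 and 35.5 CPM in non-carriers. Lepob/+ replicate 2 lay within the non-carriers and SOD1G93A-Lepob/+ replicate 3 just under their lowest, while the remaining carriers were far below. The log2 fold change was -1.06 ± 0.27 (SE, edgeR unadjusted p = 0.00123). Hrh2, a histamine receptor, lay at 2.04, 2.61 and 5.15 CPM in carriers against 3.89, 5.01 and 7.86 CPM in non-carriers, with a log2 fold change of -0.82 ± 0.21 (SE). Only Lepob/+ replicate 3 of the carriers reached the range of the non-carriers.

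The other lower leading genes were 1700048O20Rik, 5330438D12Rik, Gm6023, Abhd1 and Ajm1. 5330438D12Rik and Ajm1, a protein of apical junctions, were each higher in the libraries rich in lymph node genes among non-carriers. Ajm1 was at 0.900 to 1.15 CPM in the 5 rich non-carriers and at 0.0529 to 0.155 CPM in the other 3, while Lepob/+ replicate 3, also rich, was at 0.219 CPM. With the lymph node covariate its log2 fold change went from -2.71 ± 0.72 (SE) to -0.93, and that of 5330438D12Rik from -1.90 ± 0.50 (SE) to -0.71. In the 10 libraries poor in lymph node genes these values were -0.02 and -0.00. Abhd1, an alpha/beta hydrolase, kept a log2 fold change of -0.37 with the covariate against -0.41 without it. The lincRNA 1700048O20Rik was at 0.930 to 1.71 CPM in carriers and 1.37 to 3.37 CPM in non-carriers. Gm6023, a processed pseudogene that may share reads with its parent, was at 0.167 to 0.309 CPM in carriers and 0.212 to 0.700 CPM in non-carriers.

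The higher leading genes did not pass adjustment either. Thbs1, the matrix glycoprotein thrombospondin 1 that activates TGF-beta and limits vessel growth, lay at 31.6, 135 and 202 CPM in carriers and 27.8, 50.4 and 78.9 CPM in non-carriers. Lepob/+ replicates 1, 2 and 4 and SOD1G93A-Lepob/+ replicates 2 and 3 exceeded every non-carrier, and Lepob/+ replicate 3 lay among the lowest. Its log2 fold change was 1.19 ± 0.33 (SE, edgeR unadjusted p = 0.00265), 1.23 without and 1.16 with the transgene, and 1.28 with the lymph node covariate. Slc6a8, the creatine transporter, was at 14.3, 31.5 and 51.5 CPM in carriers and 9.64, 16.8 and 24.1 CPM in non-carriers. The groups overlapped through Lepob/+ replicate 3 and SOD1G93A-Lepob/+ replicate 2. The log2 fold change of Slc6a8 was 0.85 ± 0.23 (SE).

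Gcnt2, which branches the glycans of the I blood group antigen, was at 12.5, 21.6 and 29.1 CPM in carriers and 6.53, 13.0 and 16.6 CPM in non-carriers. Lepob/+ replicates 1 to 4 all exceeded every non-carrier, and the SOD1G93A-Lepob/+ mice lay on both sides. Its log2 fold change was 0.77 ± 0.21 (SE), and 0.99 with the lymph node covariate (edgeR unadjusted p = 0.000662). Pde9a, a phosphodiesterase that breaks down cyclic GMP, was at 5.46, 6.56 and 7.75 CPM in carriers and 3.12, 4.96 and 5.49 CPM in non-carriers. The ranges touched only at Lepob/+ replicate 3, and the log2 fold change was 0.45 ± 0.12 (SE).

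Ift122, a subunit of the transport machinery of cilia, had a log2 fold change of 0.45 ± 0.12 (SE) and reached 10.03 to 18.3 CPM in carriers against 8.29 to 13.2 CPM in non-carriers. Nek5, a NIMA-related kinase, had a log2 fold change of 2.00 ± 0.53 (SE) at levels of 0.170 to 1.10 CPM in carriers and 0 to 0.351 CPM in non-carriers, which are few counts. Trim16, an E3 ubiquitin ligase, had a log2 fold change of 1.05 ± 0.29 (SE), and Slc4a11, a membrane transporter, of 0.67 ± 0.18 (SE). The lincRNAs Gm36827 and 4933404O12Rik had log2 fold changes of 2.44 ± 0.66 and 0.40 ± 0.11 (SE). These 20 leading genes had unadjusted edgeR p-values of 0.000301 to 0.00265, and 14 of the 20 passed the adjusted threshold without Lepob/+ replicate 3. They were picked for those p-values, so their number and their sign are a description.

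**Figure D3:**
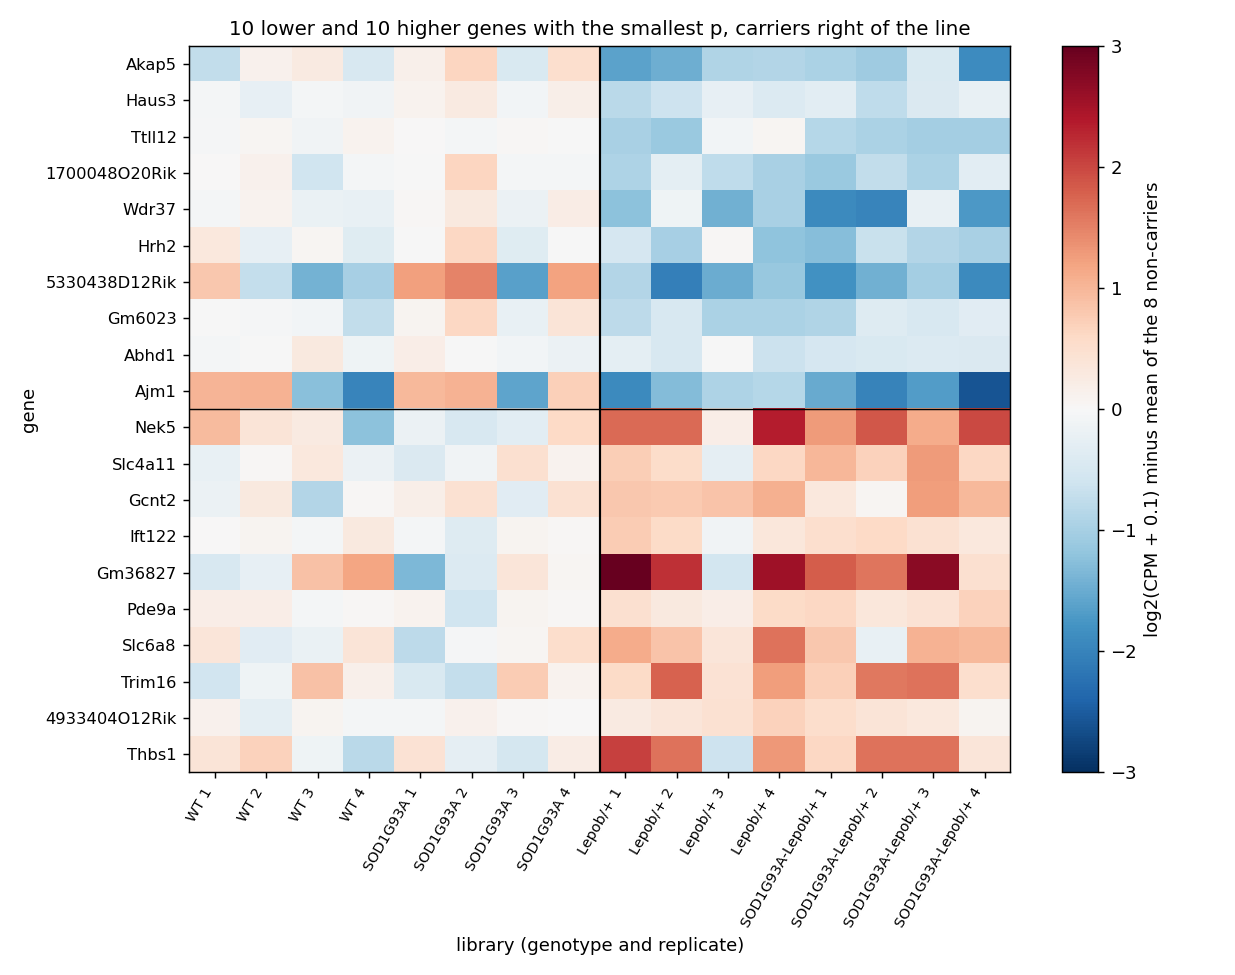
Level of the 10 lower and 10 higher genes with the smallest p in each library, as log2(CPM + 0.1) minus the mean of the 8 non-carriers (colour, blue below and red above), with libraries on the horizontal axis and genes on the vertical axis. Ttll12 was near the non-carrier level in Lepob/+ replicates 3 and 4, and Lepob/+ replicate 3 lay near the non-carriers for most of the higher genes.

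Enzymes that build fatty acids lay lower in carriers as a group, without a call. Of 16 genes of de novo lipogenesis, 15 lay lower and 1 higher, and the median log2 fold change was -0.63 against 0.03 over all genes. The mean log2 CPM of the list was 7.68, 8.29 and 9.59 in carriers and 8.13, 9.37 and 9.87 in non-carriers. Carriers fell on both sides, with Lepob/+ replicate 3 and SOD1G93A-Lepob/+ replicates 1 and 4 at the level of most non-carriers, and WT replicate 2 was low like the other carriers. Scd2, a stearoyl-CoA desaturase, was the only member with an unadjusted edgeR p under 0.05, with a log2 fold change of -0.69 ± 0.32 (SE, unadjusted p = 0.0457, adjusted p = 0.600). Acss2, which makes acetyl-CoA from acetate, and Acaca, the carboxylase that commits acetyl-CoA to fatty acid synthesis, had log2 fold changes of -0.92 ± 0.51 and -0.74 ± 0.42 (SE).

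With the lymph node covariate, under which 620 genes (3.14%) had an unadjusted edgeR p under 0.05, the median of the lipogenic list was -0.66 and 1 of its 16 members had such a p. Among the 10 libraries poor in lymph node genes, 7 carriers and 3 non-carriers, all 16 members lay lower, the median was -1.47, and 12 had an unadjusted edgeR p under 0.05 against 2.57% of all genes in that direction and 4.73% in both, none with an adjusted p under 0.05. Fasn, the fatty acid synthase, had a log2 fold change of -2.00 there and -0.85 over all libraries, and Acly, which supplies cytosolic acetyl-CoA, -2.49 and -0.95. Both were named outside the rule of smallest p, with their values known, and both lay below the list median. In those libraries the mean log2 CPM of the list was 7.68 to 9.56 in carriers and 9.38 to 9.87 in the 3 non-carriers. The libraries left out included Lepob/+ replicate 3, the highest carrier for this list (9.59), and WT replicate 2, the lowest non-carrier (8.13). The larger values in the poor libraries rest in part on leaving out these libraries. Lepob/+ replicate 4, with its muscle RNA, was at 7.87, and Lepob/+ replicates 1 and 2 and SOD1G93A-Lepob/+ replicates 2 and 3 were at 7.68 to 8.32. In the same 10 libraries 14 of 16 mature adipocyte markers lay lower with a median of -0.32, and all 25 skeletal muscle genes lay higher with a median of 3.43. Their part in the lipogenic values was not tested.

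Cholesterol synthesis had 13 of 17 genes lower, a median log2 fold change of -0.31 and 4 lower members with an unadjusted edgeR p under 0.05, against 3.31% of all genes. Mvd, the mevalonate diphosphate decarboxylase, was at 6.97, 9.03 and 12.6 CPM in carriers and 9.32, 11.5 and 14.5 CPM in non-carriers. Carriers other than Lepob/+ replicate 3 and SOD1G93A-Lepob/+ replicate 4 lay below every non-carrier. The log2 fold change was -0.37 ± 0.13 (SE), and those of the later enzymes Dhcr7 and Cyp51 were -0.43 ± 0.17 and -0.25 ± 0.10 (SE). With the lymph node covariate the list median was -0.28 with 4 of 17 at an unadjusted edgeR p under 0.05, against 3.14% of all genes. In the 10 poor libraries it was -0.43 with 9 of 17, against 4.73% of all genes.

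The remaining fat cell lists moved less. All 16 genes of fatty acid oxidation lay higher, with a median of 0.15 and 0 at an unadjusted edgeR p under 0.05. Acadm, the medium-chain dehydrogenase, and Slc25a20, which carries acylcarnitines into mitochondria, had log2 fold changes of 0.24 ± 0.12 and 0.21 ± 0.11 (SE). In the 10 libraries poor in lymph node genes 8 of these 16 genes lay higher and the median was -0.02. Mature adipocyte markers had a median of 0.13 with 10 of 16 higher, and -0.18 with the lymph node covariate. Lipolysis and lipid droplet genes had a median of 0.12 with 11 of 16 higher. Plin4, a perilipin of lipid droplets, had a log2 fold change of 0.44 ± 0.22 (SE).

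Insulin signalling genes had 9 of 16 higher, with a median of 0.11. Irs2, an adaptor of the insulin receptor that fasting raises in liver, was at 59.3, 93.7 and 139 CPM in carriers and 53.0, 66.0 and 97.1 CPM in non-carriers. The groups overlapped, with Lepob/+ replicates 1 and 2 and SOD1G93A-Lepob/+ replicate 2 above all non-carriers. It had a log2 fold change of 0.46 ± 0.18 (SE, edgeR unadjusted p = 0.0248).

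Among adipokines other than leptin, 8 of 12 lay higher, 3 of them with an unadjusted edgeR p under 0.05, against 2.79% of all genes. The list median was 0.19, or -0.12 without and 0.43 with the transgene. With the lymph node covariate 4 of 12 lay higher and the median was -0.12. In the 10 libraries poor in lymph node genes 4 of 12 also lay higher, with a median of -0.12. Sfrp5, a secreted WNT inhibitor, was at 6.36, 33.4 and 152 CPM in carriers and 5.24, 11.5 and 36.4 CPM in non-carriers. The groups overlapped, and the highest value was that of SOD1G93A-Lepob/+ replicate 3. Sfrp5 had a log2 fold change of 1.44 ± 0.59 (SE), which was 0.43 with the covariate. Angptl4, a secreted inhibitor of lipoprotein lipase, had 0.48 ± 0.20 (SE). Its values were 0.08 without and 0.88 with the transgene, a difference that was not called (edgeR interaction adjusted p = 0.564).

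Genes of the glucocorticoid and fasting response had 14 of 16 higher and a median of 0.40, or 0.30 with the lymph node covariate. Cebpd, a transcription factor that glucocorticoids induce, was at 20.3, 36.4 and 73.0 CPM in carriers and 14.2, 24.8 and 33.4 CPM in non-carriers. The ranges overlapped and the highest value was that of Lepob/+ replicate 4, the library with muscle RNA. The fitted log2 fold change was 0.65 ± 0.26 (SE, edgeR unadjusted p = 0.0234), and Mt2, a metallothionein, had 0.55 ± 0.25 (SE).

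Of 16 genes of the integrated stress and unfolded protein response, 12 lay higher with a median of 0.17. Sesn2, a leucine sensor that restrains mTORC1, was at 17.1, 34.01 and 44.7 CPM in carriers and 15.6, 22.1 and 27.2 CPM in non-carriers. Lepob/+ replicate 3 was the lowest carrier, and Lepob/+ replicates 1, 2 and 4 and SOD1G93A-Lepob/+ replicates 2 and 3 exceeded every non-carrier. The log2 fold change was 0.59 ± 0.19 (SE, edgeR unadjusted p = 0.00698), and 0.31 with the lymph node covariate. Trib3, a pseudokinase that ATF4 induces, had 0.55 ± 0.21 (SE). Chac1, which degrades glutathione, had 2.02 ± 0.78 (SE), with 138 CPM in Lepob/+ replicate 4 and at most 8.35 CPM in any other library.

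Immediate early genes, which respond within minutes to stimuli and to handling, had 10 of 16 lower and a median of -0.20. There were 4 lower members with an unadjusted edgeR p under 0.05, against 3.31% of all genes. The log2 fold changes of the transcription factors Ier2 and Egr1 were -0.40 ± 0.14 and -0.52 ± 0.22 (SE). That of Btg2, an antiproliferative cofactor, was -0.47 ± 0.18 (SE), and -0.17 with the lymph node covariate.

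Antioxidant enzymes had 16 of 18 higher and a median of 0.19, or 0.05 with the covariate. Nqo1, a quinone reductase, and Gsr, the glutathione reductase, had log2 fold changes of 0.74 ± 0.30 and 0.36 ± 0.15 (SE), and the highest Nqo1 value, 24.0 CPM, was again that of Lepob/+ replicate 4. Of the cytosolic chaperones, Hspa1a had 0.46 ± 0.16 (SE), and the list had 10 of 14 higher with a median of 0.09.

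Lymphocyte genes gave the largest medians, and these moved with the lymph node score. All 24 T cell genes lay lower in carriers (median log2 fold change -3.17), 1 of them with an unadjusted edgeR p under 0.05, against 3.31% of all genes. All 21 B cell genes lay lower with a median of -2.98, which was 0.08 without and -6.25 with the transgene. The mean log2 CPM of the T cell list was -0.41, 0.18 and 6.10 in carriers and -0.13, 5.61 and 6.55 in non-carriers. Every library above 5 was one of the 6 rich in lymph node genes, and the others reached at most 1.13.

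Cd247, the zeta chain of the T cell receptor, was at 2.47, 4.02 and 45.9 CPM in carriers and 3.35, 33.98 and 62.8 CPM in non-carriers. Lepob/+ replicate 3 was the only carrier in the high range. It had a log2 fold change of -1.84 ± 0.80 (SE, edgeR unadjusted p = 0.0364). Cd2 and Cd28, adhesion and costimulatory receptors of T cells, had -1.92 ± 0.94 and -1.70 ± 0.85 (SE). Cd37, a B cell tetraspanin, and Ciita, the activator of MHC class II genes, had -1.32 ± 0.70 and -0.99 ± 0.53 (SE). With the lymph node covariate the medians of the T cell and B cell lists were -0.39 and -0.27. All 24 T cell genes still lay lower then, 7 of them with an unadjusted edgeR p under 0.05 against 3.14% of all genes, and 17 of 21 B cell genes lay lower, with 1 such p in the list. In the 10 libraries poor in lymph node genes the medians of the 2 lists were -0.35 and -0.42. There 1 of 24 and 0 of 21 members had an unadjusted edgeR p under 0.05, against 4.73% of all genes.

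Of the 13 genes of the lymph node score, 12 lay lower with a median of -2.40, which became 0.09 with the covariate built from the same list. Ccl19, a chemokine of lymph node stroma, was at 0.449, 0.569 and 50.01 CPM in carriers and 0.190, 37.3 and 57.0 CPM in non-carriers. It was above 35 CPM in the 6 rich libraries and below 1 CPM in the other 10. Fut7, which makes selectin ligands in venules and in leukocytes, differed in that Lepob/+ replicate 3 was at only 0.656 CPM. It was at 0.181, 0.603 and 1.15 CPM in carriers and 0.880, 1.72 and 7.97 CPM in non-carriers, with a log2 fold change of -1.85 ± 0.49 (SE, edgeR unadjusted p = 0.00194), and -1.30 with the covariate.

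All 14 genes of NK and cytotoxic lymphocytes lay lower with a median of -1.20 and 7 members at an unadjusted edgeR p under 0.05, against 3.31% of all genes. Under the lymph node covariate the median was -0.33 and 0 of the 14 had an unadjusted edgeR p under 0.05. Gzmb, a granzyme, was at 0.415 to 1.17 CPM in carriers and 0.623 to 4.00 CPM in non-carriers, with a log2 fold change of -0.96 ± 0.35 (SE). Prf1, the pore-forming perforin, had -1.83 ± 0.71 (SE), and Klrk1, the activating receptor NKG2D, -0.68 ± 0.28 (SE). Of 13 dendritic cell genes 11 lay lower with a median of -0.73 and 4 at an unadjusted edgeR p under 0.05, against 3.31% of all genes.

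Siglech, a marker of plasmacytoid dendritic cells, was at 1.03, 1.88 and 6.41 CPM in carriers and 2.32, 5.59 and 7.01 CPM in non-carriers. Lepob/+ replicate 3 was high and the other carriers overlapped only the lowest non-carriers. On the log2 scale the difference was -1.03 ± 0.39 (SE), and -0.48 with the lymph node covariate. Xcr1, a receptor of conventional dendritic cells, had -1.72 ± 0.67 (SE) and Flt3, the receptor that sustains them, -1.89 ± 0.80 (SE). With the covariate these were -0.64 (edgeR unadjusted p = 0.0212) and -0.51 (edgeR unadjusted p = 0.0384).

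Myeloid and cytokine lists lay nearer to the median of all genes. Macrophage markers had 14 of 18 higher with a median of 0.32, which was -0.01 with the lymph node covariate. In the 10 libraries poor in lymph node genes 13 of 18 lay higher with a median of 0.31. Lipid-associated macrophage genes had 6 of 12 higher. Fabp5, a fatty acid binding protein, had a log2 fold change of -0.57 ± 0.25 (SE) and the tetraspanin Cd9 one of 0.28 ± 0.12 (SE). Inflammatory cytokines had 10 of 16 lower with a median of -0.29, which turned to 0.17 with the covariate and 0.53 in the 10 libraries poor in lymph node genes. Cxcl9, a chemokine that interferon gamma induces, was at 31.1 to 51.5 CPM in carriers and 42.4 to 69.4 CPM in non-carriers, with a log2 fold change of -0.28 ± 0.12 (SE).

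Interferon-stimulated genes had 15 of 18 higher, a median of 0.33 and 0 members with an unadjusted edgeR p under 0.05. The median was 0.73 without and 0.07 with the transgene. The mean log2 CPM of the list was 4.32, 5.76 and 6.83 in carriers and 4.56, 5.24 and 6.57 in non-carriers. The groups overlapped over almost the whole range. Under the lymph node covariate 16 of 18 lay higher with a median of 0.41, again with 0 members at an unadjusted edgeR p under 0.05. In the 10 libraries poor in lymph node genes all 18 lay higher with a median of 0.91, and 11 had an unadjusted edgeR p under 0.05, against 2.16% of all genes in that direction. There the list was at 4.65 to 5.57 in the 3 non-carriers and at 5.05 to 6.83 in the 7 carriers. Isg15, a ubiquitin-like modifier that interferon induces, had a log2 fold change of 0.78 over all libraries and 1.65 in those 10, and the interferon-induced GTPase Gbp2 had 0.33 and 0.44.

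**Figure D4:**
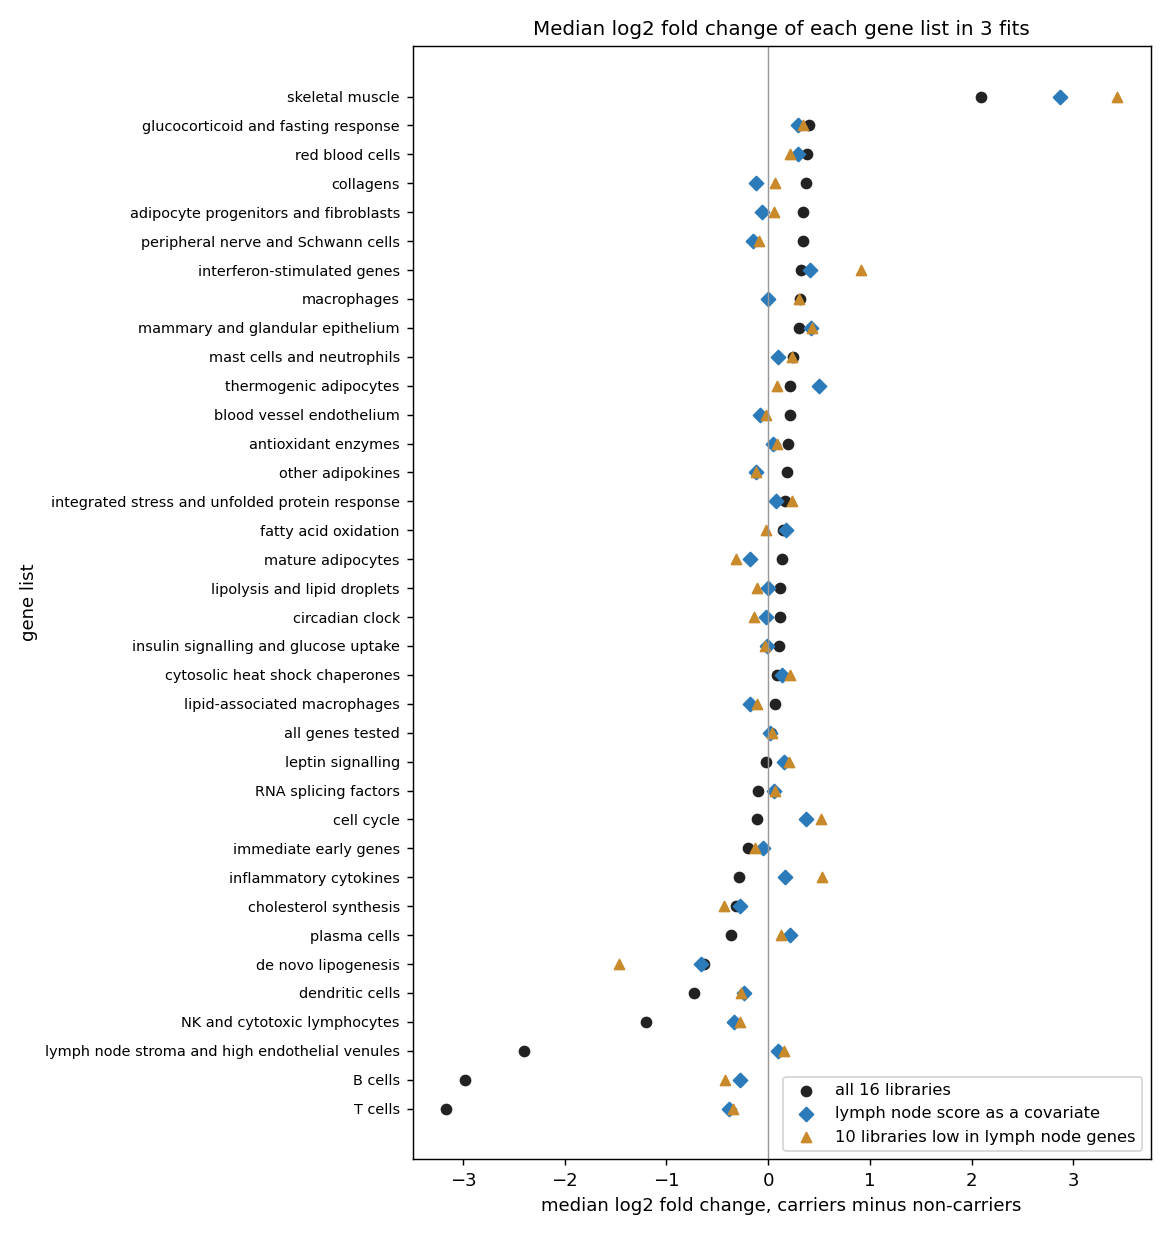
Median log2 fold change of each gene list, carriers minus non-carriers, over all 16 libraries (circles), with the lymph node score as a covariate (diamonds) and in the 10 libraries poor in lymph node genes (triangles). The T cell median went from -3.17 to -0.39 and -0.35, and that of de novo lipogenesis from -0.63 to -0.66 and -1.47.

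Stromal and vascular lists lay slightly higher in carriers over all libraries and near 0 once the lymph node score was included. Collagens had 13 of 14 higher and a median of 0.38, which was -0.12 with the covariate. Adipocyte progenitor and fibroblast markers had 13 of 15 higher and medians of 0.35 and -0.06. Ly6a, the stem cell antigen Sca-1, was at 147 to 392 CPM in carriers and 99.1 to 248 CPM in non-carriers, with a log2 fold change of 0.67 ± 0.25 (SE). Blood vessel endothelium had 15 of 16 higher with medians of 0.21 and -0.08. Eng, a TGF-beta coreceptor, and Vwf, the von Willebrand factor, had log2 fold changes of 0.30 ± 0.13 and 0.41 ± 0.19 (SE). Peripheral nerve and Schwann cell genes had medians of 0.34 and -0.15.

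All 25 skeletal muscle genes lay higher with a median of 2.1, and this rested on Lepob/+ replicate 4. Their mean log2 CPM was -0.44, 0.05 and 11.6 in carriers and -0.53, 0.33 and 6.36 in non-carriers. Apart from that library and WT replicate 3, no library exceeded 3.38. Without Lepob/+ replicate 4 the median was -1.90, and -2.37 without SOD1G93A-Lepob/+ replicate 3 as well. Thermogenic adipocyte genes had 10 of 13 higher, with a median of 0.22 that was 0.99 without and -0.42 with the transgene, and Lepob/+ replicate 3 held the highest mean level. Without that library the thermogenic median was -0.14, and by limma voom with quality weights it was -0.77.

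The ob allele was also compared within each transgene background, which used separate mice. Over 19736 genes, the log2 fold changes of Lepob/+ against WT and of SOD1G93A-Lepob/+ against SOD1G93A had Pearson's r of 0.05 and Spearman's rho of 0.10, a description across genes that are not independent replicates, and 53.3% of genes had the same sign. There were 45 genes with an unadjusted edgeR p under 0.05 in both backgrounds, 22 of them with the same sign in both. By edgeR no gene passed adjustment in either background, where 862 (4.37%) and 3261 (16.5%) had an unadjusted p under 0.05. The study used DESeq2 and reported genes past an adjusted p of 0.05 in both comparisons, far more of them with the transgene. DESeq2 was not run within each background here. The T cell median was -0.59 without the transgene and -5.85 with it, and the lymph node libraries made up 2 of 4 WT, 1 of 4 Lepob/+, 3 of 4 SOD1G93A and 0 of 4 SOD1G93A-Lepob/+ mice. Among metabolic lists, de novo lipogenesis was at -0.68 and -0.44, cholesterol synthesis at -0.23 and -0.27 and the glucocorticoid response at 0.67 and 0.04.

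The interaction of ob allele and transgene gave 0 calls by edgeR (0%), with 1574 genes (7.98%) at an unadjusted p under 0.05 and a smallest adjusted p of 0.564, while DESeq2 called 42 (0.218%) and limma voom called 0. Itgav, the alpha V integrin subunit, had a log2 fold change of -2.44 without and 1.18 with the transgene (edgeR unadjusted p of the interaction = 0.00263). It was at 25.5 to 35.2 CPM in WT replicates 2, 3 and 4 and SOD1G93A-Lepob/+ replicate 1, and at 3.09 to 7.53 CPM in all 12 other libraries. Aqp5, a water channel of glands, had -1.58 and 0.72 (edgeR unadjusted p of the interaction = 0.0205), and Ddit4, an inhibitor of mTORC1, had 1.24 and -0.56 (edgeR unadjusted p of the interaction = 0.00479). Over all 16 libraries these genes had log2 fold changes of -0.63 ± 0.78, -0.43 ± 0.55 and 0.34 ± 0.36 (SE).

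Gm4613, a processed pseudogene, was at 0 counts in all 8 carriers and in 3 of 8 non-carriers, and at 1.38 to 2.03 CPM in the other 5 non-carriers. Against a floor of 3 counts over the 8 carriers, its pooled level was at least 108-fold lower in carriers, which covers counting error only. The edgeR unadjusted p was 0.00354 and the adjusted p was 0.600. Gm128 was detected in 2 of 8 carriers and 6 of 8 non-carriers, at no more than 0.469 CPM.

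**Figure D5:**
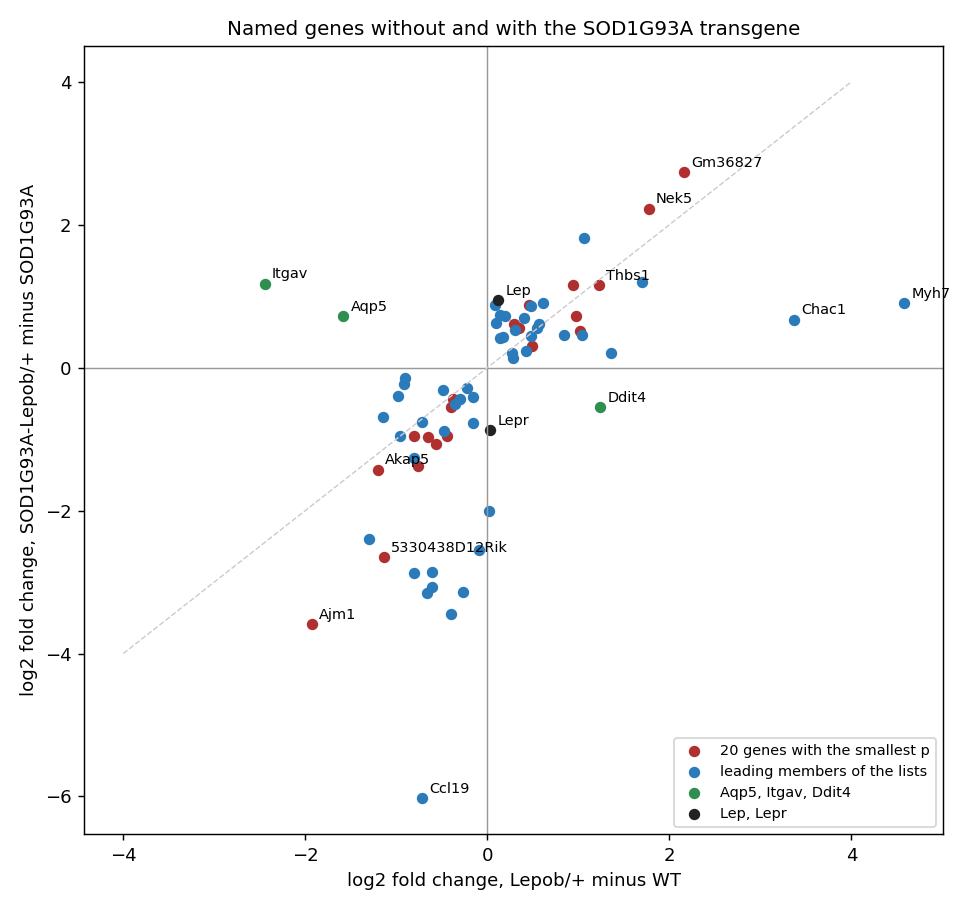
Log2 fold change of named genes for Lepob/+ minus WT (horizontal axis) and SOD1G93A-Lepob/+ minus SOD1G93A (vertical axis), 1 point for each gene, with a dashed line of equality. Genes chosen by the smallest p lie on the same side of 0 on both axes by that choice, Itgav, Aqp5 and Ddit4 lie on opposite sides, and Ccl19 reached -6.03 with the transgene.

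The 630 genes called without Lepob/+ replicate 3 were set beside the lymph node score. Once that library was left out, the 5 rich libraries were all non-carriers and the 7 carriers were all poor. All 559 lower genes had a higher mean log2 CPM in the rich libraries than in the poor ones, and all 71 higher genes a lower one. These counts were partly fixed by the choice of the 630 genes. Lepob/+ replicate 3 lay above every other carrier for 554 of the lower genes and below every other carrier for 70 of the higher genes. All 24 T cell genes, 18 of 21 B cell genes, 8 of 14 NK and cytotoxic genes and 5 of 13 dendritic cell genes were called lower, against 2.83% of all genes. Lck, the T cell kinase, had a log2 fold change of -5.06 ± 0.97 (SE, edgeR adjusted p = 0.0267), and Cd79a, part of the B cell receptor, of -6.53 ± 1.23 (SE, edgeR adjusted p = 0.0267). Both were chosen after their values were seen. In Lepob/+ replicate 3 they were at 175 and 298 CPM, inside the range of the rich non-carriers.

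With the lymph node covariate over all libraries, 69 of the 630 genes had an unadjusted edgeR p under 0.05, against 3.14% of all genes, and 525 kept their sign. In the 10 poor libraries, 108 of the 630 had an unadjusted edgeR p under 0.05 and the same sign, against 4.73% of all genes with such a p in either direction. The 7 poor carriers are in all these fits, so they are not independent of the choice of the 630 genes. With both the covariate and that library left out, only Hvcn1, a voltage-gated proton channel of leukocytes, was called (0.00507% of genes), with a log2 fold change of -1.12 ± 0.13 (SE, edgeR adjusted p = 0.0166). Hvcn1 was at 14.0 to 28.8 CPM in 7 carriers and at 159 CPM in Lepob/+ replicate 3, against 35.0 to 197 CPM in non-carriers. Of the 16 libraries, 12 were rich non-carriers or poor carriers, and the part of lymph node tissue in the values of single genes was not tested beyond these alternatives.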

How the data were processed

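Raw gene counts from iWAT were used as deposited by the authors, with 1 column for each of 16 mice (4 per genotype). Per the study's methods, reads were trimmed with fastp (Phred 30, length 30), aligned to GRCm38 (mm10) with HISAT2 2.1.0 and counted with featureCounts 2.0.2, keeping unique reads. The strand setting was not given in the sources used here, and the labels and methods name different library kits, so overlapping and antisense genes and pseudogenes are uncertain. Of 54752 gene IDs, 54723 had a symbol.

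Genes were kept by filterByExpr in edgeR 4.0.16 (minimum count 10, minimum total 15; R 4.3.3), scaled by TMM and tested by the quasi-likelihood F test (two-sided) with the ob allele and the transgene as additive terms and Benjamini-Hochberg adjustment over 19736 genes. CPM values used TMM-scaled library sizes of kept genes, and log2 CPM a prior count of 1. DESeq2 1.42.0 and limma 3.58.1 were alternatives. In data simulated for this comparison on 19736 genes, 58 of 66 genes simulated with a log2 change of 3 were recovered, as were 54 of 67 at 2 and 37 of 67 at 1. There were 8 false calls. Counts were drawn for each gene independently, with a spread estimated from these data. No lymph node or muscle RNA shared between genes was simulated, so these shares may not hold for the present libraries. Same-numbered mice did not deviate together, so replicate number was no block.

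Named genes were Lep and Lepr, the genes called (filled to 10 per direction by the smallest unadjusted p), up to 3 members per list by p, Aqp5, Itgav, Ddit4, Gm128, Gm4613, Sod1 and sex-linked genes; 1 list member is not reported here. The members, the 36 gene lists and this rule were chosen with earlier results of these data known. The lymph node score is the mean log2 CPM of its list, and libraries above 1 were called rich. Nothing says that mice of a group came from separate litters, so p-values measure the spread between these samples.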

Additional observations from a re-analysis of the deposited data

Results flagged for a closer look

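In groups of 8 libraries, Dixon's test at the 95% level marked a single extreme library in 30 of 218 checks over named genes and lists, where chance gives about 1 in 20. The checks were not independent, since they shared libraries and many of the genes were members of the lists, so this comparison is no test. Most of the marked cases were Lepob/+ replicate 3 among carriers. On the log2 CPM scale it was high for Cd247 (5.52), Cd2 (6.18), Cd28 (4.92), Cd37 (7.43), Ciita (6.72), Ccl19 (5.64), Prf1 (3.18), Xcr1 (2.53), Flt3 (4.61) and Btg2 (6.92), and low for Slc4a11 (2.58) and Plin4 (10.2). As a mean log2 CPM it was high for the lists of B cells (6.99), T cells (6.10), lymph node stroma with its venules (4.62), NK and cytotoxic lymphocytes (2.63), dendritic cells (4.58) and thermogenic adipocytes (4.78). The part of lymph node tissue in each value was not tested.

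Lepob/+ replicate 4 stood apart among carriers for Chac1 (7.11), Nqo1 (4.59), the skeletal muscle list (11.6) and, on the low side, the mast cell and neutrophil list (0.68). WT replicate 3, the other library with raised muscle genes, was the low extreme for the mast cell and neutrophil list among non-carriers (0.91). Lepob/+ replicate 2 was lowest for Gzmb (-1.19). SOD1G93A-Lepob/+ replicate 1 was highest for Itgav (5.12), and SOD1G93A-Lepob/+ replicate 3 for the inflammatory cytokine list (1.61). Among non-carriers, SOD1G93A replicate 2 was the low extreme for Pde9a (1.65) and the high extreme for Fut7 (3.00), and WT replicate 2 was the low extreme for Acss2 (6.33) and 4933404O12Rik (1.43).

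SOD1G93A-Lepob/+ replicate 3 had 1756 counts from Ddx3y, Uty, Kdm5d and Eif2s3y and 0 Xist counts, while the other 15 libraries had 0 counts from these Y chromosome genes.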

How the results depend on the processing

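The adjusted count of 0 was kept under DESeq2 size factors, TMM from genes outside the lymphoid and muscle lists, no filter, a stricter filter, DESeq2, no SOD1G93A term, the lymph node or muscle covariate, and leaving out the 6 lymph node rich libraries or both Lepob/+ replicate 4 and SOD1G93A-Lepob/+ replicate 3. It became 6335 (2866 higher, 3469 lower; 8787, 4208 and 4579 unadjusted) by limma voom with quality weights, which weighted Lepob/+ replicate 4 (0.199) and replicate 3 (0.298) least. Chosen after seeing the data, voom without weights and weighted voom with the lymph node covariate gave 0, and the covariate without Lepob/+ replicate 3 gave 1, lower. Leaving out 1 library gave 0 to 630 calls (higher 0 to 71, lower 0 to 559) and 636 to 4357 unadjusted (higher 325 to 1664, lower 292 to 2693). Unadjusted counts were 1956 (857 higher, 1099 lower) without a filter on 31407 genes, 1960 (1299 lower) by DESeq2, 864 higher without the SOD1G93A term, 620 (243 higher, 377 lower) with the lymph node covariate, and 764 (318 lower) without both named libraries; the cause was not tested. With the replicate block 0 genes were called and 978 were under 0.05 unadjusted; of 24 same-numbered pairs 5 correlated above 0.1, and 1 of 16 libraries correlated best with its own number. Interaction calls were 42 by DESeq2 and 0 to 2 with 1 library left out (738 to 3244 unadjusted), with 969 unadjusted under the block. The Lep permutation difference was 0.38 to 0.80 with 1 library left out, with no p under 0.05.

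Of 74 genes chosen by the naming rule, over 31 settings, 66 kept their sign throughout. Most were picked for a small p in the main fit, and the settings reuse the same libraries. A kept sign was therefore partly fixed by that choice. The log2 fold change turned, for Lep, to -0.13 with the lymph node covariate, -0.18 without the rich libraries, -0.15 with the covariate and no Lepob/+ replicate 3 and -0.25 by weighted voom with the covariate, and for Lepr to 0.21, 0.31, 0.25 and 0.19. Ccl19 turned to 0.10, 0.54 and 0.19 in the first 3 of these, Cd2 and Cd28 to 0.062 and 0.021 without the rich libraries, and Cd2 and Cd37 to 0.10 and 0.00028 by weighted voom with the covariate. Aqp5 (0.042) and Ddit4 (-0.15) turned by weighted voom. Genes under 1 CPM rest on few counts. The 3 non-carriers poor in lymph node genes limit every value given for the 10 such libraries.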

Other observations

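Proliferation and RNA processing genes depended on the lymph node score for their sign. Of 20 cell cycle genes, 17 lay lower in carriers with a median log2 fold change of -0.11, and with the lymph node covariate all 20 lay higher with a median of 0.37. Of 31 splicing factor genes, 29 lay lower with a median of -0.10, and with the covariate 26 lay higher with a median of 0.06. Plasma cell genes had a median of -0.36 that became 0.22. Circadian clock genes had 11 of 17 higher with a median of 0.11, and in the 10 libraries poor in lymph node genes 2 of 17 were higher with a median of -0.14 and 6 had an unadjusted edgeR p under 0.05, against 4.73% of all genes. Mammary and glandular epithelium genes had 13 of 17 higher with a median of 0.31, and red blood cell genes 6 of 6 higher with a median of 0.38. None of these lists had a member with an unadjusted edgeR p under 0.05 over all libraries.

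Gm26826 was the only gene of 19736 whose 8 carriers did not overlap the 8 non-carriers (0.00507% lower, 0% higher). It was at 0.0562 to 0.219 CPM in carriers and 0.226 to 0.531 CPM in non-carriers, with a log2 fold change of -1.09 ± 0.29 (SE, edgeR unadjusted p = 0.00204, adjusted p = 0.600). These are few counts in any library, and the gene was chosen after its values were seen.

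Neighbours of Lep were examined on chromosome 6. Within 10 Mb of Lep on chromosome 6, 102 other genes were tested, of which 68 lay higher and 34 lower in carriers with a median log2 fold change of 0.10. Over all genes 54.2% lay higher, with a median of 0.03. At an unadjusted edgeR p under 0.05 there were 6 higher and 2 lower, 7.84% of the window against 6.1% of all genes. The 2 lower were Strip2 (-0.49 ± 0.19, SE) and Zfp800 (-0.43 ± 0.18, SE). The 6 higher were Tmem140 (0.63 ± 0.24, SE), Plxna4, Podxl, Flnc, Gm13861 and 2210408F21Rik. All were named after their values were seen.

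Without SOD1G93A-Lepob/+ replicate 3 the interaction called Fbxo34 (-2.16 ± 0.29, SE, edgeR adjusted p = 0.0397) and Ptp4a1 (-2.90 ± 0.34, SE, edgeR adjusted p = 0.0204). Fbxo34 was at 2.75 to 10.7 CPM in the 4 SOD1G93A-Lepob/+ mice and at 15.8 to 21.4 CPM in all others. For Ptp4a1 the library left out was at 56.1 CPM and the other 3 SOD1G93A-Lepob/+ mice at 6.82 to 11.1 CPM, while the 12 mice of other genotypes were at 37.0 to 69.6 CPM. Over all libraries the interaction of Ptp4a1 was -1.67 (edgeR unadjusted p = 0.0422).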
